A study of Mus musculus with 48 samples.

Results

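The genes described here are the Hox cluster genes of the mouse, measured in cortex and striatum of mice that carry mutant human huntingtin and of wild-type mice. They were chosen by name: every probe of the array whose gene symbol in the platform annotation is Hoxa, Hoxb, Hoxc or Hoxd followed by a number. This gave 38 genes of 16593 named genes on the array, measured by 50 of 25697 probes, with 17 probes for 10 Hoxa genes, 13 for 10 Hoxb genes, 11 for 9 Hoxc genes and 9 for 9 Hoxd genes. 9 of the genes had more than 1 probe.

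The 24 mice were of strain FvB/NJ and were aged 2, 7 or 11 months. At each age 4 were wild-type and 4 carried the BACHD-ΔN17 transgene, a bacterial artificial chromosome with the human huntingtin gene that has an expanded polyglutamine tract and lacks its N-terminal stretch, driven by the human gene's own regulatory sequence. Cortex and striatum of each mouse went on separate Illumina MouseRef-8 bead arrays, so the 12 groups of region, genotype and age held 4 mice each, 2 males and 2 females, on 48 arrays. The genotype comparison asks how the transgenic mice differ from wild-type in each region and at each age.

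Hox genes encode homeodomain transcription factors that give cells their position along the head-to-tail axis of the embryo. The genes of a cluster lie in a row, and their order matches the order of their domains: low numbers act in the hindbrain, middle numbers in the cervical and thoracic trunk, high numbers in the lumbar region, tail, limbs and genitalia. In the nervous system they pattern the hindbrain and spinal cord and set the identity of motor neuron columns, while in the forebrain the clusters are kept silent by Polycomb repressive complexes. Each Hox protein binds DNA with partner homeodomain proteins of the Pbx and Meis families.

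In 11-month BACHD-ΔN17 cortex, 11 of the 50 Hox probes were higher than in wild-type cortex and none was lower, where 3.03% of all probes were higher. They came from all 4 clusters, with Hoxc6 and Hoxb5 far ahead of the others. Hoxc6 was also higher in BACHD-ΔN17 striatum at 7 and 11 months and in cortex at 7 months, and it was undetected in every wild-type array. At 2 months no Hox probe differed between the genotypes in either region. Of all probes, 0% were higher in either region at that age, and 0.00389% were lower in striatum and 0% in cortex.

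The promoters of 22 of the 38 genes were held in the RefSeq table used here (build GRCm38.p6), among them 5 of the 11 genes that were higher in cortex at 11 months. The 5 printed here are shown because they are neighbours that were and were not called higher. Hoxa5 and Hoxa7 rose while Hoxa6 between them was never detected, and Hoxd8 and Hoxd9 lie side by side and both rose. Each runs from 250 bases before to 50 bases after the gene's start, 5′ to 3′ on the gene's strand, with CpG dinucleotides in capitals.
Hoxa5, chr6:52204538-52204837, minus strand: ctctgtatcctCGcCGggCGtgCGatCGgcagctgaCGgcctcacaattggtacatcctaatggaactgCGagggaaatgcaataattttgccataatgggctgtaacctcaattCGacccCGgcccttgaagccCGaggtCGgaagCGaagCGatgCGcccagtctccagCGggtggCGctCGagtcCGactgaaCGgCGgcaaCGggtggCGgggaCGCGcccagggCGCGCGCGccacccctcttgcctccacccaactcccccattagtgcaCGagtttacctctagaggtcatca
Hoxa6, chr6:52208623-52208922, minus strand: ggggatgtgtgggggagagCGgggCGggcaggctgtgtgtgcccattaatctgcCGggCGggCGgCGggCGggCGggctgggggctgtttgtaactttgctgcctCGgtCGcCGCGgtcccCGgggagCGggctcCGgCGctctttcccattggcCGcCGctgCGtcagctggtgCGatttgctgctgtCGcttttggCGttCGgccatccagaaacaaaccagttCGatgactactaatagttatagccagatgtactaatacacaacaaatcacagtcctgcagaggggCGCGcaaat
Hoxa7, chr6:52218524-52218823, minus strand: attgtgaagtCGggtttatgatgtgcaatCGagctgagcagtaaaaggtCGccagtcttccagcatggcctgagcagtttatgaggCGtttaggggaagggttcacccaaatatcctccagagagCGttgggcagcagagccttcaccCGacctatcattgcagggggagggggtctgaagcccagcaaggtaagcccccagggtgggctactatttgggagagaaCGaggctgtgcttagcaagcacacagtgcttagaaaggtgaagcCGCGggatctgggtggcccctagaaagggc
Hoxd8, chr2:74704365-74704664, plus strand: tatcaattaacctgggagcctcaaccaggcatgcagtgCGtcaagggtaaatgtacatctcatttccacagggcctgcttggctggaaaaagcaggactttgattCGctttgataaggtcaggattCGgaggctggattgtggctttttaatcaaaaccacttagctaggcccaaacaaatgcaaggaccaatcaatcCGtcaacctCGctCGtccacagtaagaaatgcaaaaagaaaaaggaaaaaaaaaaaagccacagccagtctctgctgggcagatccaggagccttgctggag
Hoxd9, chr2:74697513-74697812, plus strand: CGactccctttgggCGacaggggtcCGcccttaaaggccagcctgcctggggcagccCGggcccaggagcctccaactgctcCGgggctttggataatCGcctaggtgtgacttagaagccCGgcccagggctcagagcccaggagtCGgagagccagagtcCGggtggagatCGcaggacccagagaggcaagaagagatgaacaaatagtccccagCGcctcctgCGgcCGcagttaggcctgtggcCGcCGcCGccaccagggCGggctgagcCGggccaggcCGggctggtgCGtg

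These windows held 29 CpG dinucleotides for Hoxa5, 26 for Hoxa6, 9 for Hoxa7, 6 for Hoxd8 and 20 for Hoxd9. The median was 14.5 over 24 Hox promoters and 7 over all 32851 promoters of the table. Hoxd8 and Hoxd9, which both rose, thus had 6 and 20, and Hoxa6, whose probe was never detected, had nearly as many as Hoxa5. Whether CpG content bears on the changes was not tested. A set of 4 motifs was searched on both strands. TGATNNAT, a form of the Hox-Pbx site, was in 16.7% of Hox promoters and 8.85% of all, and TGACAG, a Meis site, in 8.33% and 19.2%. TTAATTA, a homeodomain core, was in 4.17% and 3.07%, and a short purine repeat, GAGAG, in 66.7% and 62.0%. Of the 5 genes with a promoter that rose, none held the first 3 motifs and 3 held GAGAG, in these 300 bases. TGATNNAT and TTAATTA can overlap, and a match is only a match of letters.

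Detection is the first readout. A probe counted as detected on an array when the deposited detection p was under 0.05, that is, when its intensity exceeded that of nearly all negative control beads. Probes that behave like the negative controls would pass on 2.4 of 48 arrays on average, a figure that need not hold for each single probe. Of the 50 Hox probes 27, or 54.0%, passed on no array, against 27.4% of all probes on the array. A Hox probe was detected on a median of 0 arrays, and a probe of the whole array on a median of 30. Silent Hox probes had normalized log2 intensities from 4.53 to 6.05, and the level at which detection began on an array lay between 5.62 and 6.16.

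The clusters differed in how often their probes were seen. In Hoxa, 12 of 17 probes were never detected, and in Hoxb 9 of 13. In Hoxc 4 of 11 were never detected and in Hoxd 2 of 9. A probe seen on 1 array counts as detected here, though chance alone can give that. On at least 4 arrays, 23.5% of Hoxa, 23.1% of Hoxb, 45.5% of Hoxc and 33.3% of Hoxd probes were detected, against 62.9% of all probes. By that measure Hoxc and not Hoxd came first. These are few probes per cluster and no test was made of the difference between clusters. 18 of the 38 genes had no detected probe at all.

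**Figure D1:**
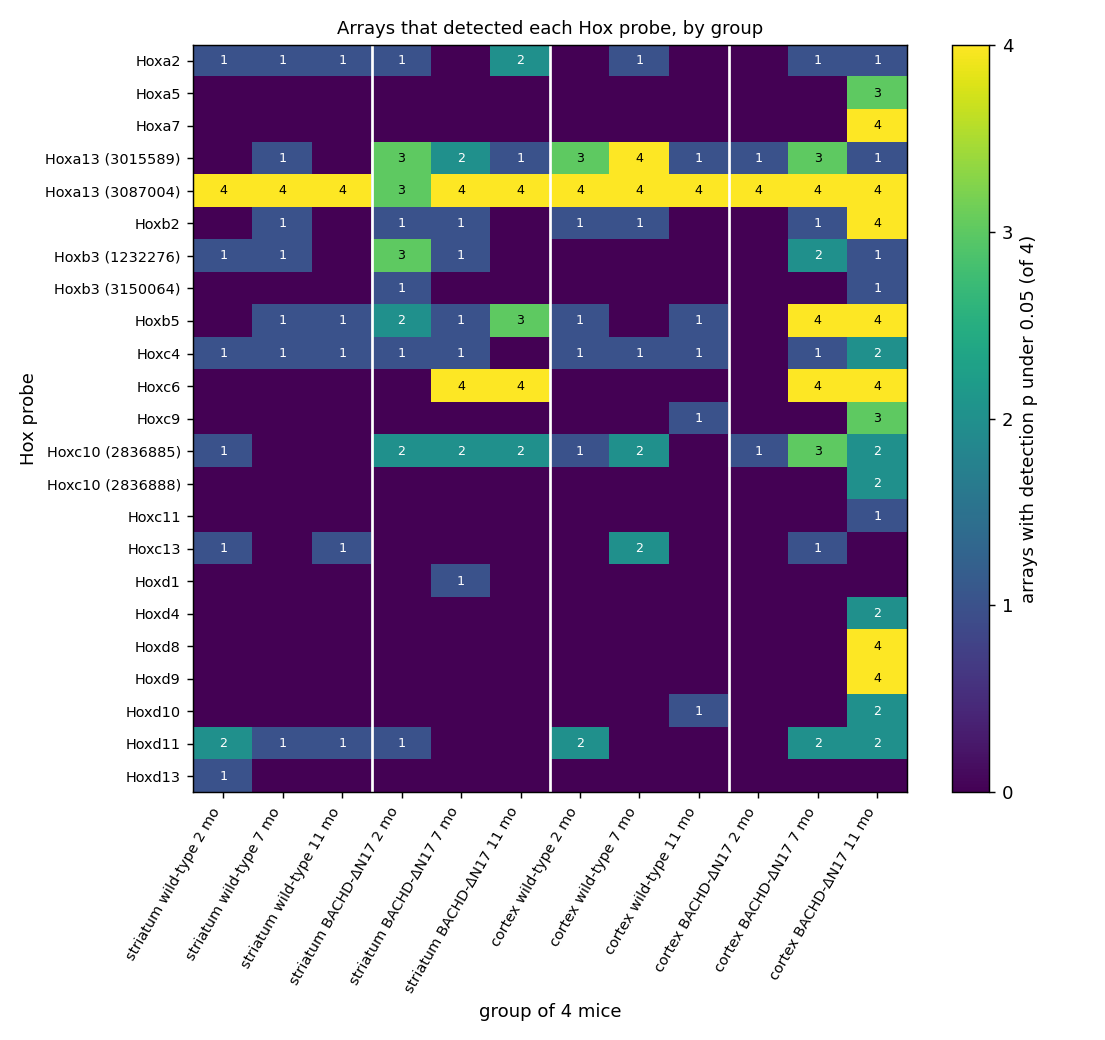
Number of arrays, of 4 in each group, on which each Hox probe was detected, for the 23 probes detected on at least 1 array (rows, with the probe number in brackets where a gene has several) in the 12 groups of region, genotype and age (columns). Hoxa7, Hoxd8 and Hoxd9 were detected on all 4 arrays of 11-month BACHD-ΔN17 cortex and on no other array, and Hoxc6 on all 4 in 4 BACHD-ΔN17 groups and on no wild-type array.

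Only 1 Hox probe was detected on nearly every array. Hoxa13, a gene of the digits and the genital tubercle, was detected by ILMN_3087004 on 47 of 48 arrays, with group means from 6.56 to 7.24 on the normalized log2 scale. Its other probes were detected on 20 arrays (ILMN_3015589) and on 0 (ILMN_1237317), so the 3 probes of this gene disagree. The probe sequences were not used here, and which probe reports the transcript was not tested.

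The number of detections was highest in BACHD-ΔN17 cortex at 11 months. Of 200 chances in a group (50 probes on 4 arrays), BACHD-ΔN17 cortex gave 6 detections at 2 months, 26 at 7 months and 51 at 11 months. Wild-type cortex gave 13, 15 and 9. Striatum gave 18, 17 and 16 in BACHD-ΔN17 mice and 12, 11 and 9 in wild-type mice. At 11 months the 4 BACHD-ΔN17 cortices had 16, 8, 13 and 14 detected Hox probes and the 4 wild-type cortices 2, 3, 2 and 2, so the groups did not overlap.

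**Figure D2:**
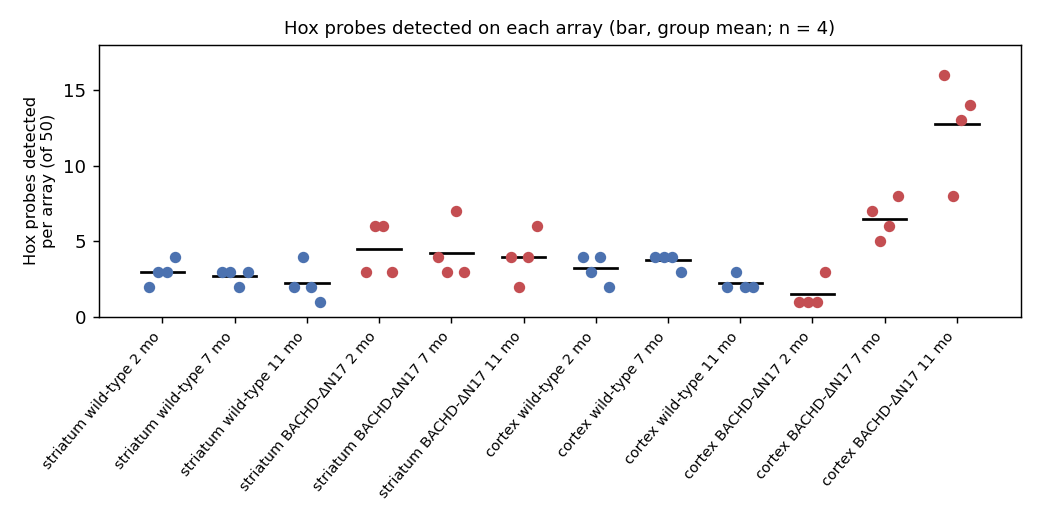
Hox probes detected per array, of 50 (vertical axis), for the 4 arrays of each group (points; bar, group mean), wild-type in blue and BACHD-ΔN17 in red. The 4 arrays of 11-month BACHD-ΔN17 cortex lie at 8 to 16, above the wild-type cortices of that age at 2 or 3.

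All 4 clusters took part in that rise. In cortex at 11 months, Hoxa probes were detected in 19.1% of chances in BACHD-ΔN17 and 7.35% in wild-type mice, and Hoxb probes in 19.2% and 1.92%. For Hoxc the shares were 31.8% and 4.55%, and for Hoxd 38.9% and 2.78%. Over all probes of the array they were 51.6% and 50.5%. A probe on in all 4 BACHD-ΔN17 cortices and in none of the 4 wild-type cortices at 11 months was rare, at 0.148% of all probes (38 of 25697), and 5 of those 38 were Hox probes: Hoxa7, Hoxb2, Hoxc6, Hoxd8 and Hoxd9. In cortex at 7 months 2 of 18 such probes (0.07% of all) were Hox probes, Hoxb5 and Hoxc6. In striatum it was Hoxc6 alone, as 1 of 84 at 7 months (0.327% of all) and 1 of 41 at 11 months (0.16%), and at 2 months there was no Hox probe among 4 in striatum (0.0156%) and 3 in cortex (0.0117%). These counts were made after the data had been seen.

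Detection was also compared with the ages pooled. Such a test could not call Hoxa7, Hoxd8 or Hoxd9 in cortex, detected on 4 against 0 arrays (2-sided Fisher's exact test, unadjusted p = 0.0932). With the 12 BACHD-ΔN17 arrays of a region set against the 12 wild-type arrays, Hoxc6 was detected on 8 against 0 in each region (2-sided Fisher's exact test, p = 0.00135, adjusted p = 0.421 in striatum and 0.908 in cortex). No Hox probe passed after adjustment (0% of the 6566 striatal and 0% of the 6743 cortical probes tested were called), and in cortex Hoxb5, detected on 8 against 2, had an unadjusted exact p of 0.0361 and an adjusted p of 1.

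Levels were compared with limma on the background-corrected, quantile-normalized log2 scale, with p-values adjusted over all 25697 probes and a call at adjusted p under 0.05. Differences are BACHD-ΔN17 minus wild-type. Where a probe was undetected on all arrays of 1 group, the fold is a bound against the lowest detectable signal and is written as at least so many-fold. In bulk tissue, more cells that express a gene and more RNA per cell cannot be told apart.

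Hoxc6, on chromosome 15, encodes a factor of the thoracic trunk that marks motor neurons of the forelimb columns. In 11-month BACHD-ΔN17 cortex its 4 arrays read 9.72, 8.76, 8.44 and 9.46, and in wild-type cortex 4.83, 4.90, 4.95 and 5.00. The lowest BACHD-ΔN17 value stood far above the highest wild-type value. The difference was 4.18 (SE 0.22, limma adjusted p = 2.30e-13), at least 8.53-fold, and the mean unnormalized intensity was 715 against 187.

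At 7 months the same probe read 7.05, 6.84, 6.46 and 7.03 in BACHD-ΔN17 cortex and 4.79, 5.20, 5.11 and 4.90 in wild-type cortex. In striatum it read 7.64, 7.77, 6.95 and 7.08 against 5.18, 4.82, 5.10 and 4.92 at 7 months, and 7.78, 7.86, 7.03 and 7.91 against 5.10, 5.14, 4.74 and 4.84 at 11 months. Every one of these comparisons separated the genotypes without overlap. The differences were 1.84 in cortex at 7 months (at least 2.11-fold, adjusted p = 1.64e-05), 2.36 in striatum at 7 months (at least 2.83-fold, 7.33e-09) and 2.69 in striatum at 11 months (at least 3.73-fold, 2.01e-10). At 2 months BACHD-ΔN17 cortex read 4.70, 4.84, 5.06 and 4.71, and the probe was undetected on all 16 arrays of both regions.

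Ordered by level, the Hoxc6 group means ran from 9.09 ± 0.59 (SD, n = 4) in 11-month BACHD-ΔN17 cortex to 7.64 ± 0.41 and 7.36 ± 0.41 in BACHD-ΔN17 striatum at 11 and 7 months, then 6.85 ± 0.27 in BACHD-ΔN17 cortex at 7 months. Striatum at 11 and 7 months did not differ beyond their spread, and single arrays of 7-month striatum and cortex overlapped. The 8 other groups lay between 4.83 and 5.00 and were all undetected. The genotype difference was larger in cortex than in striatum at 11 months, with an effect on the within-mouse region difference of -1.49 (SE 0.28, adjusted p = 0.00129). At 7 months that effect was 0.51 (SE 0.28, adjusted p = 0.695).

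Hoxb5, on chromosome 11, is a gene of the cervical and upper thoracic region that acts in lung and neural crest development. In 11-month BACHD-ΔN17 cortex it read 9.22, 8.70, 8.47 and 9.29, and in wild-type cortex 5.09, 5.50, 5.40 and 6.06. The groups did not overlap, and 1 of 4 wild-type arrays reached detection. The difference was 3.41 (SE 0.25, adjusted p = 3.88e-10), and no fold is given, since most wild-type values lay below detection. At 7 months the arrays read 7.05, 7.67, 6.84 and 7.64 against 5.59, 5.56, 5.58 and 5.37, a difference of 1.77 (at least 2.89-fold, adjusted p = 1.93e-04).

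In striatum Hoxb5 was close to the background. At 11 months it read 6.90, 5.59, 6.43 and 7.11 in BACHD-ΔN17 mice and 6.11, 5.57, 5.36 and 5.54 in wild-type mice, so the groups overlapped. The difference of 0.87 (SE 0.28) just passed (adjusted p = 0.0488) and was lost when any of 6 of the 8 mice was left out (0.67 to 1.17, adjusted p up to 0.201). The RefSeq annotation places the antisense transcript Hoxb5os over Hoxb5, and the strand a probe reads was not given in the sources used here.

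The counts by region follow. In striatum at 7 months 2 of 50 Hox probes were called higher and 0 lower, against 2.14% higher and 3.23% lower of all probes. At 11 months it was again 2 and 0, against 3.67% and 4.67%, so those shares were close to the array's own. The second probe at 7 months was Hoxc11 (ILMN_2988178), which read 5.43, 5.23, 5.52 and 5.52 against 5.16, 4.82, 4.97 and 4.98 and was not above background on any of these arrays. Its difference of 0.44 (adjusted p = 0.0214) was lost when any of 5 of the 8 mice was left out, and no fold is given. In cortex at 7 months 2 of 50 were higher and 0 lower, against 0.222% and 0.564% of all probes, and at 11 months 11 were higher and 0 lower, against 3.03% and 4.34%. At 2 months none was called in either region (0% of all probes higher in either, 0.00389% lower in striatum and 0% in cortex), with 4 Hox probes at an unadjusted p under 0.05 in striatum and 1 in cortex. Over all 50 probes in cortex at 11 months the median difference was 0.16 against 0.01 over all probes of the array.

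Hoxd8 and Hoxd9, next to each other on chromosome 2, pattern the thoracic and lumbar trunk. In 11-month cortex Hoxd8 read 7.89, 6.44, 6.27 and 7.08 in BACHD-ΔN17 mice and 4.88, 4.75, 4.78 and 4.82 in wild-type mice. Hoxd9 read 7.19, 6.48, 6.15 and 6.79 against 4.97, 5.52, 4.97 and 4.94. Neither gene overlapped between the genotypes. The differences were 2.11 for Hoxd8 (SE 0.22, at least 1.89-fold, adjusted p = 1.46e-07) and 1.55 for Hoxd9 (SE 0.19, at least 1.57-fold, 3.71e-06). Of the other Hoxd genes, Hoxd4, which has a role at the hindbrain and spinal cord border, read 6.34, 5.64, 5.81 and 5.56 against 4.69, 4.78, 4.82 and 5.01, a difference of 1.01 (adjusted p = 1.47e-05) with 2 of 4 arrays detected.

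From the Hoxa cluster, Hoxa5 and Hoxa7 on chromosome 6 were called. Hoxa5, needed for lung and cervical and thoracic skeletal patterning, read 7.08, 5.63, 5.91 and 6.72 in BACHD-ΔN17 cortex at 11 months against 5.04, 4.82, 4.72 and 4.95, a difference of 1.45 (SE 0.19, at least 1.26-fold, adjusted p = 1.10e-05). Hoxa7, a trunk patterning gene, read 6.87, 6.26, 6.00 and 6.67 against 4.98, 5.01, 4.85 and 5.02, a difference of 1.48 (SE 0.16, at least 1.36-fold, 2.24e-07). Both were without overlap. In striatum at 11 months neither passed, at 0.27 (adjusted p = 0.159) and 0.41 (0.0640).

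The Hoxb cluster added 2 genes to Hoxb5. Hoxb2, which patterns rhombomeres of the hindbrain and facial motor neurons, read 7.69, 6.57, 7.39 and 7.31 in BACHD-ΔN17 cortex at 11 months and 5.72, 4.78, 5.49 and 5.08 in wild-type cortex. The difference was 1.97 (SE 0.25, at least 2.36-fold, adjusted p = 5.33e-06). Hoxb7 read 5.91, 5.01, 5.40 and 5.80 against 5.14, 4.71, 4.73 and 4.80, was undetected on all of these arrays and differed by 0.69 (adjusted p = 0.00147), with the groups overlapping.

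From Hoxc, Hoxc9 and Hoxc10 were called besides Hoxc6. Hoxc9, which sets thoracic motor neuron identity, read 7.56, 5.60, 6.30 and 7.31 in BACHD-ΔN17 cortex and 6.46, 4.93, 4.79 and 4.93 in wild-type cortex. A single wild-type array, at 6.46, lay above 2 of the BACHD-ΔN17 arrays. The difference was 1.42 (SE 0.31, adjusted p = 0.00372). Hoxc10, a lumbar motor neuron gene, was higher at 1 of its 2 probes: ILMN_2836888 read 6.64, 5.35, 5.13 and 6.16 against 4.96, 4.86, 4.93 and 5.00 (0.88, adjusted p = 0.00728), and ILMN_2836885 differed by 0.42 (adjusted p = 0.417). Without the arrays numbered 1 to 8 the ILMN_2836888 difference was 0.63 (adjusted p = 0.186).

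**Figure D3:**
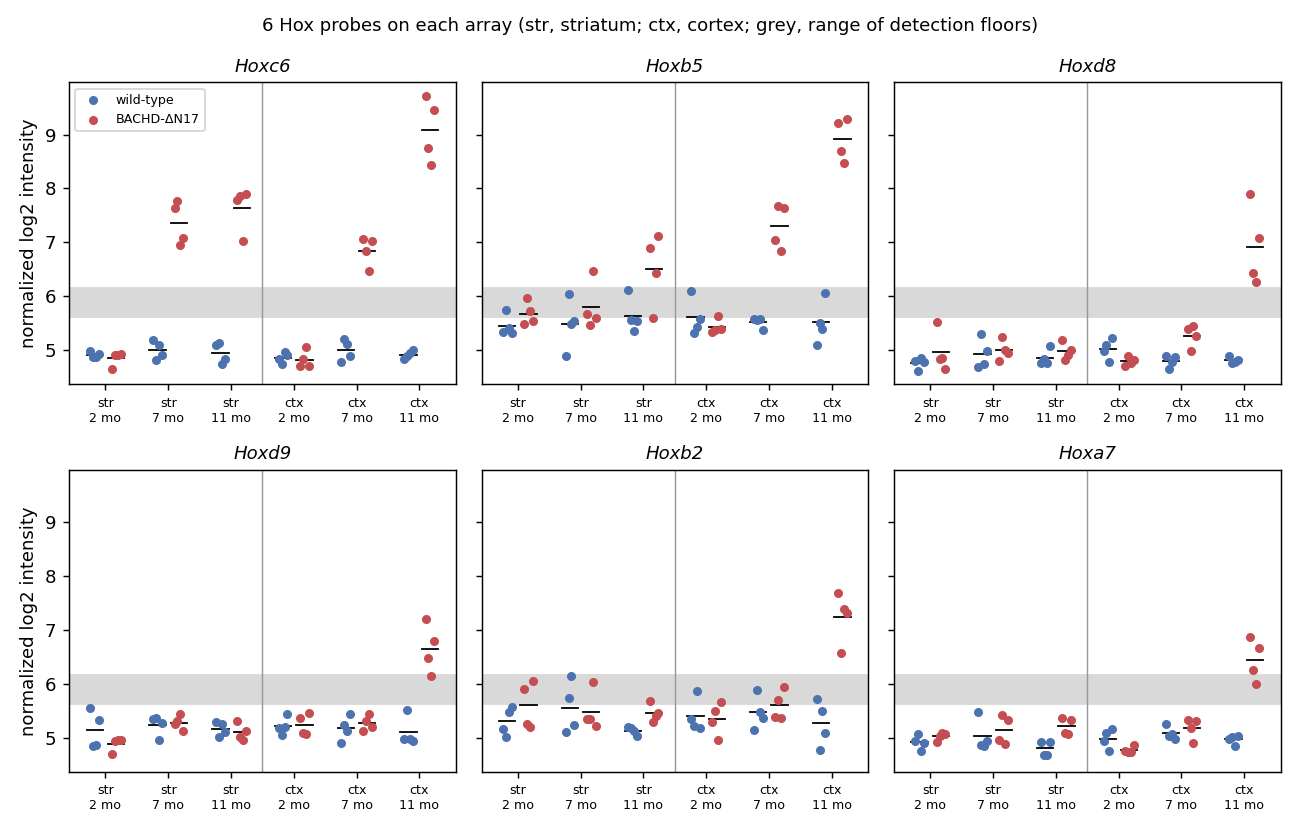
Normalized log2 intensity (vertical axis) of Hoxc6, Hoxb5, Hoxd8, Hoxd9, Hoxb2 and Hoxa7 on each array (points; bar, mean of 4 mice) in striatum and cortex at 2, 7 and 11 months, wild-type in blue and BACHD-ΔN17 in red, with the range of detection floors, 5.62 to 6.16, in grey. Hoxc6 is the one of these probes whose BACHD-ΔN17 values leave the floor in striatum on all 4 arrays of a group, and all 6 probes were detected on all 4 arrays of 11-month BACHD-ΔN17 cortex.

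The remaining 39 probes were not called in cortex at 11 months. Their differences ran from -0.41 to 0.66 with a median of 0.08. Neighbours of called genes were among them, such as Hoxa6 between Hoxa5 and Hoxa7, Hoxc8 between Hoxc6 and Hoxc9, and Hoxb6 between Hoxb5 and Hoxb7. Those 3 were undetected on all 48 arrays. By paralog number, 10 of the 26 probes with numbers 4 to 10 were called, 1 of the 12 with numbers 1 to 3 (Hoxb2) and 0 of the 12 with numbers 11 to 13. By cluster it was 2 of 17 Hoxa probes, 3 of 13 Hoxb, 3 of 11 Hoxc and 3 of 9 Hoxd. The ranking of clusters and paralog numbers rests on few probes each and was not tested.

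Groups that lay wholly apart were also counted, after the data had been seen. In cortex at 11 months 10 of 50 Hox probes had every BACHD-ΔN17 value above every wild-type value, against 4.48% of all probes, and 2 lay the other way, Hoxa13 (ILMN_3087004) and Hoxc11 (ILMN_1245642), against 5.16%. Neither of those 2 passed the test, at -0.36 (adjusted p = 0.464) and -0.24 (0.300). In cortex at 7 months it was 5 above and 0 below (2.76% and 3.04% of all), and at 2 months 0 above and 2 below, Hoxa6 and Hoxc4 (1.15% and 1.2%). In striatum 5 lay above and 0 below at 11 months (6.78% and 7.05%), 2 and 0 at 7 months (5.19% and 6.21%), and 0 and 0 at 2 months (1% and 1.25%). The 5 at 11 months held Hoxa5 and Hoxa7, which did not pass there.

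**Figure D4:**
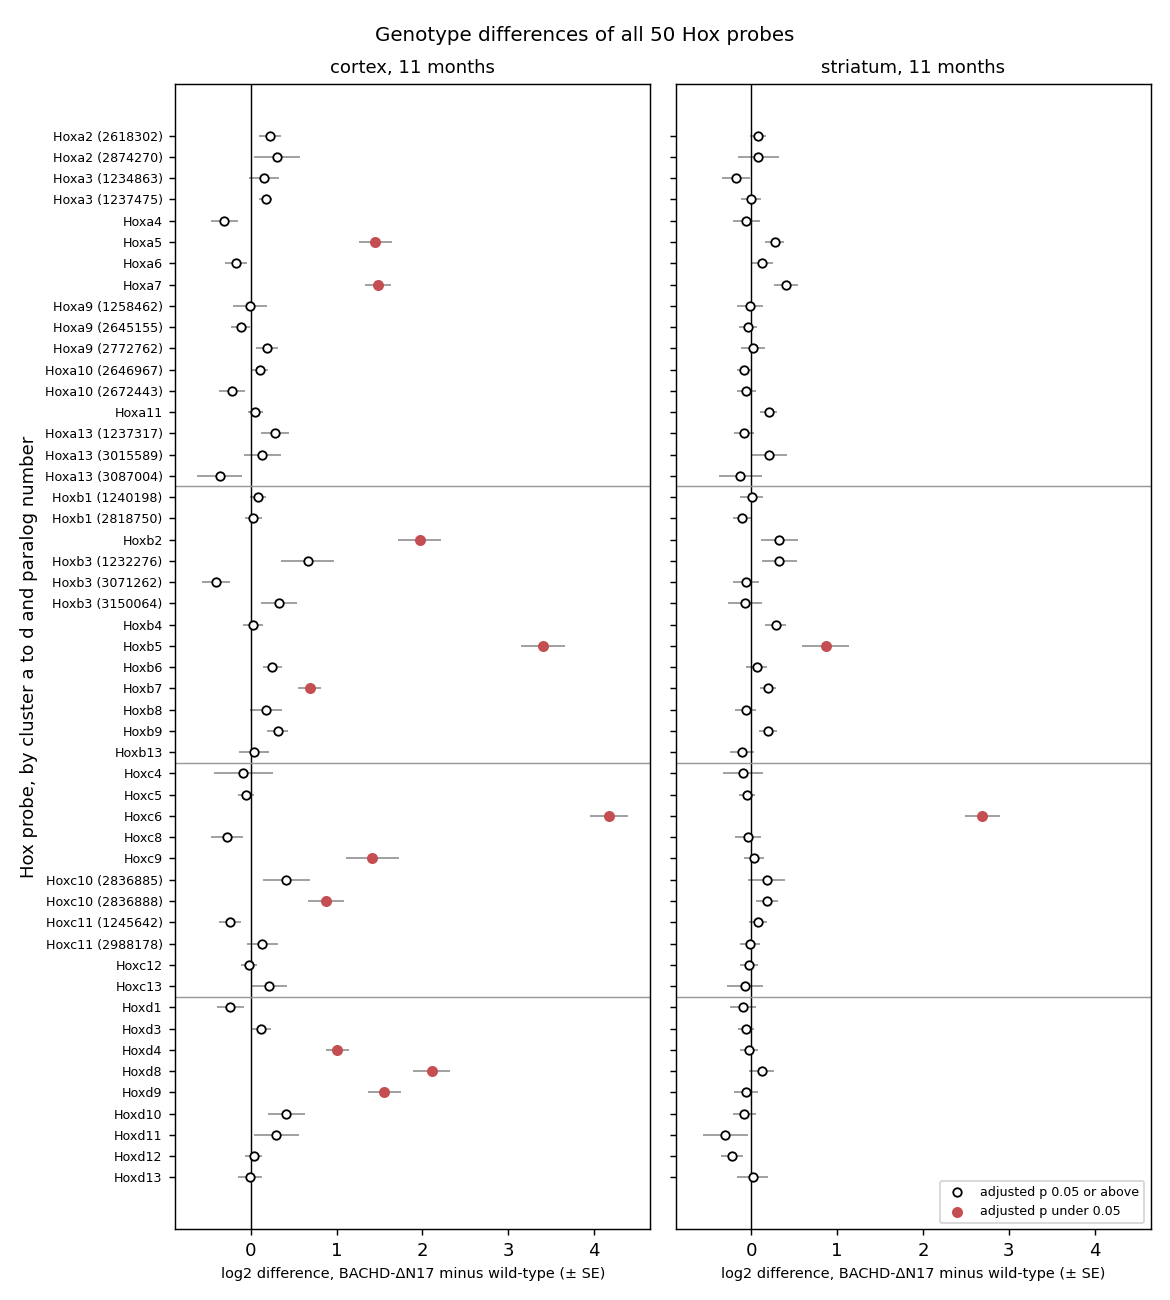
Log2 difference BACHD-ΔN17 minus wild-type (horizontal axis, ± SE) of each of the 50 Hox probes in cortex (left) and striatum (right) at 11 months, ordered by cluster a to d and by paralog number, with red points for adjusted p under 0.05. In cortex the 11 called points run from 0.69 to 4.18 and lie in all 4 clusters, and in striatum only Hoxc6 and Hoxb5 are called.

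Besides Hoxa13 (ILMN_3087004), 6 Hox probes were detected on at least 4 arrays but called in no comparison. Hoxa2 stayed at group means of 5.24 to 5.68, Hoxc4 at 5.38 to 5.77, Hoxd11 at 5.27 to 5.84 and Hoxc13 at 5.25 to 5.70. Hoxb3 (ILMN_1232276) ranged from 5.10 to 6.17, with a highest group SD of 0.99. Hoxc10 (ILMN_2836885), detected on 16 arrays, ranged from 5.57 to 6.06. None of these probes separated the genotypes under the test.

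The size of the genotype difference changed with age. From 2 to 11 months 9 cortical Hox probes (0.49% of all probes grew, 0.992% shrank) had a genotype difference that grew, by 4.21 for Hoxc6, 3.58 for Hoxb5, 2.34 for Hoxd8, 2.02 for Hoxb2, 1.69 for Hoxa7, 1.53 for Hoxd9, 1.41 for Hoxa5, 0.99 for Hoxd4 and 0.77 for Hoxb7. The Hoxb7 change, of a probe undetected on all 48 arrays, was lost when any of 13 of the 16 mice was left out (adjusted p up to 0.0871). In striatum only Hoxc6 grew, by 2.76 (0.969% of all probes grew, 1.86% shrank). From 7 to 11 months in cortex, a comparison added after the data had been seen, Hoxc6, Hoxb2, Hoxd8, Hoxd9 and Hoxa7 grew by 2.33, 1.84, 1.64, 1.46 and 1.38. These were 5 of 11 probes with a growing difference on the array (0.0428% of all probes, with 0.0195% shrinking). Hoxc6 and Hoxa7 kept this call without any single mouse. Hoxb2 lost it without any of 12 of the 16 mice (adjusted p up to 0.146), and Hoxd8 and Hoxd9 without any of 10 each (up to 0.0922 and 0.112). On arrays 1 to 32 alone 0 of the 5 passed. In wild-type mice no Hox probe changed from 2 to 11 months, by limma, in striatum (0.0389% of all rose, 0.0311% fell) or cortex (0.00389% rose, 0.00778% fell), with 1 and 3 at an unadjusted p under 0.05.

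The genotype effect on the within-mouse difference striatum minus cortex was negative, meaning a larger rise in cortex, for 8 Hox probes averaged over 7 and 11 months (2.05% of all probes lower, 1.82% higher) and for 9 at 11 months (1.36% lower, 1.21% higher). The effects at 11 and at 7 months alone were compared after the data had been seen. At 11 months the effect was -2.54 for Hoxb5, -1.99 for Hoxd8, -1.64 for Hoxb2, -1.61 for Hoxd9, -1.49 for Hoxc6, -1.39 for Hoxc9, -1.18 for Hoxa5, -1.08 for Hoxa7 and -1.04 for Hoxd4, with adjusted p of at most 0.00826. The Hoxc9 effect at 11 months was lost with mouse 4 of the BACHD-ΔN17 group or mouse 2 of the controls left out (-1.85 to -1.12 over single mice left out, adjusted p up to 0.0537), and its mean over 7 and 11 months without any of 8 of the 16 mice (up to 0.0844). At 7 months 0 passed (0.412% of all probes lower, 0.342% higher), with Hoxb5 at an adjusted p of 0.0654 and an effect of -1.47. In wild-type mice only Hoxa13 (ILMN_3015589) was lower in striatum, by -0.38 (adjusted p = 0.0120), and Hoxb1 (ILMN_2818750), undetected throughout, was higher by 0.16 (0.0250), against 15.6% and 16.9% of all probes. The Hoxb1 call was lost when either of 2 of the 12 wild-type mice was left out (limma adjusted p up to 0.0881).

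The 4 BACHD-ΔN17 cortices at 11 months did not carry equal levels. On the normalized scale mouse 1, a female, had the highest value for 10 of the 11 called probes, and mouse 4, a male, was second for 8. Mouse 2, a female, was in the lower pair for all 11, and mouse 3, a male, for 9. In the deposited intensities, without normalization, mouse 4 was highest for all 11 and mouse 1 second for 10, so the order of these mice turned with the processing, while mouse 2 stayed in the lower pair for all 11 and mouse 3 was there for 10. The authors' normalized values gave the first order. The names of mice 1 and 4 begin with the letters NTN and those of mice 2 and 3 with GN, as for all 8 younger BACHD-ΔN17 mice, and the labels do not say what the letters stand for. Mice 1 and 2 both came from arrays with low numbers, where the detection of all probes was lowest (12477 to 13187 probes, against 13226 to 14378 on the others), and 2 wild-type arrays shared that set. Within it (2 mice against 2) and among arrays 33 to 48 (1 against 2), all 11 called probes were higher in BACHD-ΔN17 mice. No test was made, and the probes were called on these same arrays, so that direction is no separate support. The Hoxc6 difference was 4.37 within the first of these sets and 4.49 within the second. For other probes the size differed more between these sets: it was 0.88 and 2.45 for Hoxc9, 1.25 and 0.65 for Hoxd4, and 0.54 and 1.03 for Hoxb7.

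Genes that flank the clusters or act with Hox proteins were counted in the same test. Skap2, an adaptor of immune cell signalling beside the Hoxa cluster, rose in all 4 older comparisons, by 1.10 in cortex at 11 months (adjusted p = 2.77e-06), 0.73 in cortex at 7 months, 0.49 and 0.53 in striatum. Of 25 flanking probes, 1 rose and 1 fell in cortex at 11 months, the latter Copz1 (-0.61), near the 3.03% and 4.34% of all probes that rose and fell there. Of 17 probes for Hox cofactors 1 rose and 2 fell there, against the same 3.03% and 4.34%. Meis1 rose by 1.11, while 1 probe for Pbx2 (-0.50, limma adjusted p = 0.0495) and 1 for Pknox2 (-0.38) fell. Other probes for Pbx2 and Pknox2 were not called there.

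Among 22 probes for chromatin regulators of Hox clusters, 4 rose and none fell in cortex at 11 months, against the same 3.03% and 4.34% of all probes. Cbx2, Cbx7, Cbx8 and Bmi1, subunits of Polycomb repressive complex 1, rose by 0.86, 0.44, 0.79 and 0.53. Of 19 probes for the retinoic acid axis, which induces Hox genes in embryos, 1 fell in cortex at 11 months (Rxrb, -0.35), near the 4.34% of all probes, and 4 fell in striatum at that age (Rarb and Rxrg), against 4.67%. None of 11 probes for trunk and ParaHox homeobox genes was called in either region at any age. At most 4.67% of all probes were called in a direction, so a list this short would hold few or no calls at that share. In cortex at 11 months 8 of 9 such genes were undetected on all 4 BACHD-ΔN17 arrays, and likewise 8 of 9 on all 4 wild-type arrays.

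Tissue identity matched the labels: all 7 probes for striatal projection neuron markers were higher in wild-type striatum, against 16.9% of all probes. All 3 for cortical excitatory neurons were higher in wild-type cortex, against 15.6%. The Neurod6 probe among those 3 was undetected on every array and differed little (striatum minus cortex -0.20, limma adjusted p = 0.0398). In BACHD-ΔN17 striatum all 7 projection neuron probes fell at 7 and 11 months, against 3.23% and 4.67% of all probes. Hoxc6 was higher there at those ages, and the part of these neurons in that result was not tested. In cortex at 11 months 1 of 3 excitatory neuron probes fell (Slc17a7, -0.45). None of the probes for blood cells (10), meningeal and perivascular fibroblasts (12), choroid plexus (7), endothelium (7) or hindbrain and spinal cord neurons (6) was called there. Of all probes 3.03% rose and 4.34% fell there, so lists this short would hold few or no calls at the array's own shares. Of the 5 hindbrain and spinal cord genes, Lbx1, Slc6a5 and Tlx3 were undetected in all 4 BACHD-ΔN17 and all 4 wild-type cortices at that age. The others, Chat and Lmx1b, were detected on at least 1 array of each genotype. The summed intensity of the 5, undetected probes included, was 917 to 1197 in BACHD-ΔN17 and 934 to 1088 in wild-type cortex. In striatum at 11 months the choroid plexus sum was 11822 to 22031 in BACHD-ΔN17 and 6316 to 16613 in wild-type mice, and its part in the striatal results was not tested.

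The sizes depend on background correction, the calls less so. On log2 intensities without it, as in the authors' own normalized values, the cortical differences at 11 months were 1.96 for Hoxc6, 1.60 for Hoxb5, 0.77 for Hoxd8, 0.70 for Hoxb2, 0.51 for Hoxd9, 0.51 for Hoxa5, 0.48 for Hoxa7, 0.52 for Hoxc9, 0.38 for Hoxd4, 0.30 for Hoxc10 and 0.28 for Hoxb7, and all 11 still passed. On arrays 1 to 32 alone Hoxb7, Hoxc9 and Hoxc10 lost their calls.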

How the data were processed

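Total RNA from cortex and striatum was labelled with biotin and hybridised to bead arrays, per the labels' protocols. The authors deposited unnormalized probe intensities, each with a detection p-value, and a second table of processed log2 values, which equal the log2 intensities after quantile normalization alone, to within 5e-09 per rank. The scanner software is not given in the sources used here. Gene symbols came from the platform annotation, in which 1719 of 25697 probes had none.

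Background was corrected from the detection p-values with limma 3.58.1 in R 4.3.3 (neqc, offset 16), followed by quantile normalization and log2. For each region 1 model with 6 group means and sex was fitted to 24 arrays (lmFit, eBayes with trend), and region comparisons used differences within a mouse. P-values were adjusted by Benjamini-Hochberg over all probes, without a detection filter, since a filter would admit a Hox probe through the group in which it is high. The tests were tried on simulated data with independent normal noise and no array sets. That setting differs from Hox probes near the detection floor, and no result here rests on it. Members and lists were chosen with earlier results of these data known. For members detected on at least 4 arrays of a region or called, values are given for the groups named, as ranges of group means or as differences. Up to 3 called members of a context list are named, and where a list had 4 all are named, the fourth after its values were seen. No array pair was identical. The number of arrays limits the precision.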

Additional observations from a re-analysis of the deposited data

Results flagged for a closer look

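In 15 of 240 checks of a probe in a group of 4, 1 array stood far from the other 3; chance flags about 1 in 20 such groups. Above the nearest array (in brackets) were Hoxa2 in 11-month BACHD-ΔN17 cortex, mouse 1, at 6.86 (5.35), and in 11-month wild-type striatum, mouse 2, at 6.26 (5.40). So were Hoxb2 in 7-month BACHD-ΔN17 striatum, mouse 3, at 6.03 (5.35), Hoxc9 in 11-month wild-type cortex, mouse 1, at 6.46 (4.93), and Hoxc10 in 2-month BACHD-ΔN17 striatum, mouse 3, at 6.43 (5.82). Below it were Hoxc6 in 11-month BACHD-ΔN17 striatum, mouse 3, at 7.03 (7.78), and Hoxa13 (ILMN_3087004) in 2-month striatum at 6.19 (7.09) in wild-type mouse 2 and 5.94 (6.99) in BACHD-ΔN17 mouse 1.

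The other 7 stood out among undetected values: Hoxa5 at 4.80 (4.73) and Hoxb5 at 5.37 (5.56) in 7-month wild-type cortex, Hoxa7 at 5.48 (4.94) in 7-month wild-type striatum, Hoxd4 at 4.93 (4.84) in 11-month wild-type striatum, Hoxd9 at 5.52 (4.97) in 11-month wild-type cortex, and in 2-month BACHD-ΔN17 striatum Hoxc6 at 4.66 (4.90) and Hoxd9 at 4.70 (4.94).

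Genotype differences that differed by limma's test between ages or regions were these. From 2 to 11 months the difference grew in striatum by 2.76 for Hoxc6, and in cortex by 4.21 for Hoxc6, 3.58 for Hoxb5, 2.34 for Hoxd8, 2.02 for Hoxb2, 1.69 for Hoxa7, 1.53 for Hoxd9, 1.41 for Hoxa5, 0.99 for Hoxd4 and 0.77 for Hoxb7. From 7 to 11 months in cortex it grew by 2.33 for Hoxc6, 1.84 for Hoxb2, 1.64 for Hoxd8, 1.46 for Hoxd9 and 1.38 for Hoxa7. Striatum minus cortex, averaged over 7 and 11 months, the effects were -2.01 for Hoxb5, -1.20 for Hoxd8, -0.92 for Hoxb2, -0.83 for Hoxd9, -0.80 for Hoxc9, -0.75 for Hoxa5, -0.61 for Hoxd4 and -0.53 for Hoxa7. At 11 months they were -2.54 for Hoxb5, -1.99 for Hoxd8, -1.64 for Hoxb2, -1.61 for Hoxd9, -1.49 for Hoxc6, -1.39 for Hoxc9, -1.18 for Hoxa5, -1.08 for Hoxa7 and -1.04 for Hoxd4.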

How the results depend on the processing

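No direction reversed under any alternative run. Of 1154 values for named members 1031 kept their side of the threshold and 123 did not. The 2 striatal calls at 7 months became 1 without background correction, with scale normalization, on the authors' values, with probes detected on at least 4 arrays only, with either array set as a factor, and on arrays 1 to 32. The 2 at 11 months became 1 without a variance trend, with eights of arrays as a factor, and on arrays 1 to 32, as did the 2 in cortex at 7 months on arrays 1 to 32. The 11 in cortex at 11 months became 7 with the detection filter, which tested 12 Hox probes. It left Hoxa5, Hoxb7, Hoxc10 (ILMN_2836888) and Hoxd4 untested, and all 7 called probes that it tested kept their calls. Of these, Hoxa7, Hoxd8 and Hoxd9 passed the filter only through 11-month BACHD-ΔN17 cortex, where they were high. Hoxc6 passed it only through BACHD-ΔN17 cortex, so the filtered calls are no separate support. In striatum at 7 months the filter left Hoxc11 untested. On arrays 1 to 32, the 9 cortical changes from 2 to 11 months became 2, the 5 from 7 to 11 months 0, and the 9 region effects at 11 months 4 (5 without arrays 1 to 8). The 0 region effects at 7 months became 1 under 7 settings. The 2 wild-type region differences became 1 with scale normalization or the filter and 0 with 1 probe per gene. The cause was not tested. With detection p under 0.01, the share of Hox detections fell from 8.46% to 3.92%, and 2 rather than 5 Hox probes were on in all BACHD-ΔN17 and no wild-type cortices at 11 months (23 probes in all).

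Leaving out single mice gave 1 to 2 calls in striatum at 7 months, 1 to 3 at 11 months, 2 to 2 in cortex at 7 months, 11 to 12 at 11 months, 1 to 2 for the change from 2 to 11 months in striatum and 8 to 10 in cortex, 2 to 6 for the cortical change from 7 to 11 months, 1 to 3 for wild-type regions, 7 to 9 for the mean region effect, 8 to 10 for it at 11 months and 0 to 1 at 7 months. Without the replicate block, that is, with the 2 regions of a mouse not paired, 7 in place of 8 Hox probes had a mean region effect, and the count at 11 months was 9 in both. Replicate numbers do not pair mice between genotypes. Arrays 1 to 32 alone were not run for the wild-type region difference, the mean region effect and that at 7 months.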
